A study of Rattus norvegicus with 164 samples.

Results

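Ribosomal protein gene copies and pseudogenes are the 27 autosomal genes whose symbol is that of a ribosomal protein gene followed by l and a number or by -ps and a number, and whose mean level reached 1 over 130 libraries. A level is log2 of the estimated count per 1000000 (CPM) plus 1. The members were chosen by this mean level in the same libraries, so levels are given below as a description only. The table held 38354 genes, 227 autosomal rows fit the symbol pattern, 199 of these had a mean under 1 and are not described, and Rpl30l2 was left out by the rule. Just inside the limit were Rpl34l2 at 1.04, Rps23-ps11 at 1.05 and Rps15al4 at 1.06, and just outside it were Rpl27al8 at 0.98, Rpl10l1 at 0.98 and Rps2-ps17 at 0.97. Within single series Rps15al4 was under the limit in the decimal libraries (mean 0.96), and Rpl34l2 (0.97) and Rps23-ps11 (0.98) were under it in the E21DCD libraries. Of the members 17 have the l form and 10 the -ps form, and RefSeq (GRCr8) lists 20 as protein coding, 6 as transcribed pseudogenes and 1 as a lncRNA. The symbol without its suffix is called the parent gene here. There were 23 parents: Rpl36 has 4 members (Rpl36-ps12, Rpl36l3, Rpl36l6 and Rpl36l7), Rpl37 has 2 (Rpl37l1 and Rpl37-ps2), and each other parent has 1.

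The RNA was polyadenylated RNA of the prelimbic cortex of outbred heterogeneous stock rats (Rattus norvegicus). Of the libraries, 68 carry an animal identifier that is a decimal number, 51 carry one that begins with E21DCD, and 11 carry an E21DCD identifier that the labels give as corrected after a genotype mismatch. These are called the decimal, E21DCD and reassigned libraries, and no label gives sex, age, treatment or batch. Each identifier names 1 library, but no label says how animals, dissections and sequencing runs relate, so p-values measure only the spread between these libraries, which may be technical.

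Ribosomal proteins are the protein part of the small subunit (Rps genes) and the large subunit (Rpl genes, with the Rplp genes of the stalk), and nearly every cell makes them in matched amounts. Mammalian genomes hold many copies of their mRNAs that were written back into DNA. Such retrocopies lack the introns of the parent; most are silent pseudogenes, and some lie where they are transcribed. A few ribosomal protein genes have true paralogs instead, such as Rpl7l1, Rpl22l1 and Rpl26l1. A recent copy is nearly identical to its parent, so a short read from either can fit both, and the estimated counts of a copy and its parent can borrow from each other.

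Libraries that stand apart touch many of the values below. In 11 decimal libraries genes of striatal neurons were above those of glutamatergic cortical neurons. Drd1, a dopamine receptor of striatal neurons, was at 8.08 to 8.62 there and at 3.08 to 5.39 in the others, and Slc17a7, the vesicular glutamate transporter of cortical neurons, at 2.75 to 8.83 and at 9.58 to 11.20. A further 7 libraries, 1 decimal and 6 E21DCD, lie at one end of the first principal component of the libraries that remain. The 1 decimal library among them, decimal replicate 15, had 15.1% of its counts in a single gene. It held the highest value of 14 of the 27 copies, against 8.26% of all 14632 autosomal genes tested. The 7 libraries together held the highest value of 17 of 27 copies, against 29.6% of genes, and the 11 that of 4 copies, against 24.5%. The part of these libraries in the results was measured by leaving out the 11, or all 18. Summed estimated counts per library, in units of 1000000, ranged from 15.1 to 55.95. In bulk tissue, fewer cells of a type and less RNA per cell cannot be told apart.

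The RefSeq table of 300-base windows around gene starts held a window for 17 copies, and for 13 of them a window of the parent too. In 3 of these 13 pairs the copy and the parent share an exact run of at least 16 bases. Each of these runs was found in 2 of 27457 windows (0.00728%), those of the copy and the parent. They are shown because over these bases the genome of the copy and of its parent is the same, base for base. In each the first line is the copy and the second the parent, 30 bases before to 30 after the annotated start, 5′ to 3′ on the gene's own strand, with the part of the shared run that falls in the 60 bases in capitals.

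Rpl36l3 (chr1:190416226-190416285, GRCr8, plus strand): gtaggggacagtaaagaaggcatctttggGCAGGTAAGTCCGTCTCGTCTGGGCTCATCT
Rpl36 (chr9:1533750-1533809, GRCr8, plus strand): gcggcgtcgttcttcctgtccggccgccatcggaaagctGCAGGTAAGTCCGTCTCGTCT
Rpl35al1 (chr12:11109025-11109084, GRCr8, minus strand): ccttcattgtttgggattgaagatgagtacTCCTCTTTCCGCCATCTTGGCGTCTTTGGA
Rpl35a (chr11:81234992-81235051, GRCr8, minus strand): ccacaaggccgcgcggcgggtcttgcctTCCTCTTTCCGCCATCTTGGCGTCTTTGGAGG
Rplp2l2 (chr15:74046742-74046801, GRCr8, plus strand): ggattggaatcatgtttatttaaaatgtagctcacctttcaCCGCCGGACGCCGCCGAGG
Rplp2 (chr1:205975891-205975950, GRCr8, plus strand): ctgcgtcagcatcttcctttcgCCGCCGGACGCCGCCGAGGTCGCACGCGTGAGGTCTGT

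The full runs are 41 bases for Rpl36l3, 32 for Rpl35al1 and 39 for Rplp2l2. In these 3 copies the run began no more than 1 base before the annotated start and reached into the gene, so the bases ahead of the start are not those of the parent. Among the ribosomal protein copies with a mean under 1 and windows for copy and parent, 41 (34.5%) shared a run of at least 16 bases. A window without such a run says nothing about the rest of the transcript.

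The levels covered a wide range. Transcript lengths were not used here, so the values of a copy and its parent are set side by side and are not a comparison per length. Rpl37l1 (chr10:61532037-61532395, protein coding), a copy of the gene for large-subunit protein L37, was highest, from 6.38 to 9.35 with a median of 7.02, while its parent Rpl37 ran from 1.12 to 6.14 with a median of 2.43. Rps20-ps11 (chr5:160825066-160825584, transcribed pseudogene), a copy of the gene for small-subunit protein S20, ran from 6.02 to 8.42 with a median of 6.56, and its parent Rps20 from 0.73 to 3.37 with a median of 2.60. In both pairs the estimated count of the copy exceeded that of the parent in 130 of 130 libraries. The copy held a median of 96.9% of the summed count of the Rpl37 pair and 94.9% of the Rps20 pair. Among the 82 ribosomal protein genes of the parent list, Rpl37 and Rps20 had the third and the fourth lowest mean, 2.51 and 2.53, after Rpl3l and Rps27l. RefSeq lists Rpl37 as a synonym of Rpl37l1.

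The other 4 copies with a median over 4 had a lower median than their parents. Rpl7l1, a paralog of Rpl7 known from pre-ribosome assembly, had the narrowest range, 6.00 to 6.51 with a median of 6.21, against a mean of 7.88 for Rpl7. Rps14-ps7 (chr5:143634718-143635293, transcribed pseudogene) had the widest, from 0.00 to 9.15 with a median of 6.05, and its count exceeded that of the small-subunit gene Rps14 in 24 libraries. Rpl36al1, whose RefSeq synonym is Rpl36al, ran from 4.96 to 8.12 with a median of 5.50. Its count exceeded that of the X-linked parent Rpl36a in 6 libraries. Rpl22l1, the paralog of Rpl22, ran from 4.32 to 6.51 with a median of 4.91 and was below Rpl22 in all 130. Rpl36l6, with a mean of 3.69, and Rplp2l2, a copy of the stalk protein gene Rplp2, with 3.48, followed. The remaining 19 members had means from 1.04 to 3.26. Of these Rpl37-ps2 was above Rpl37 in 24 libraries and no other copy was above its parent in any. The copy's median share of the pair's count was lowest for Rpl19l4, at 0.43%.

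**Figure D1:**
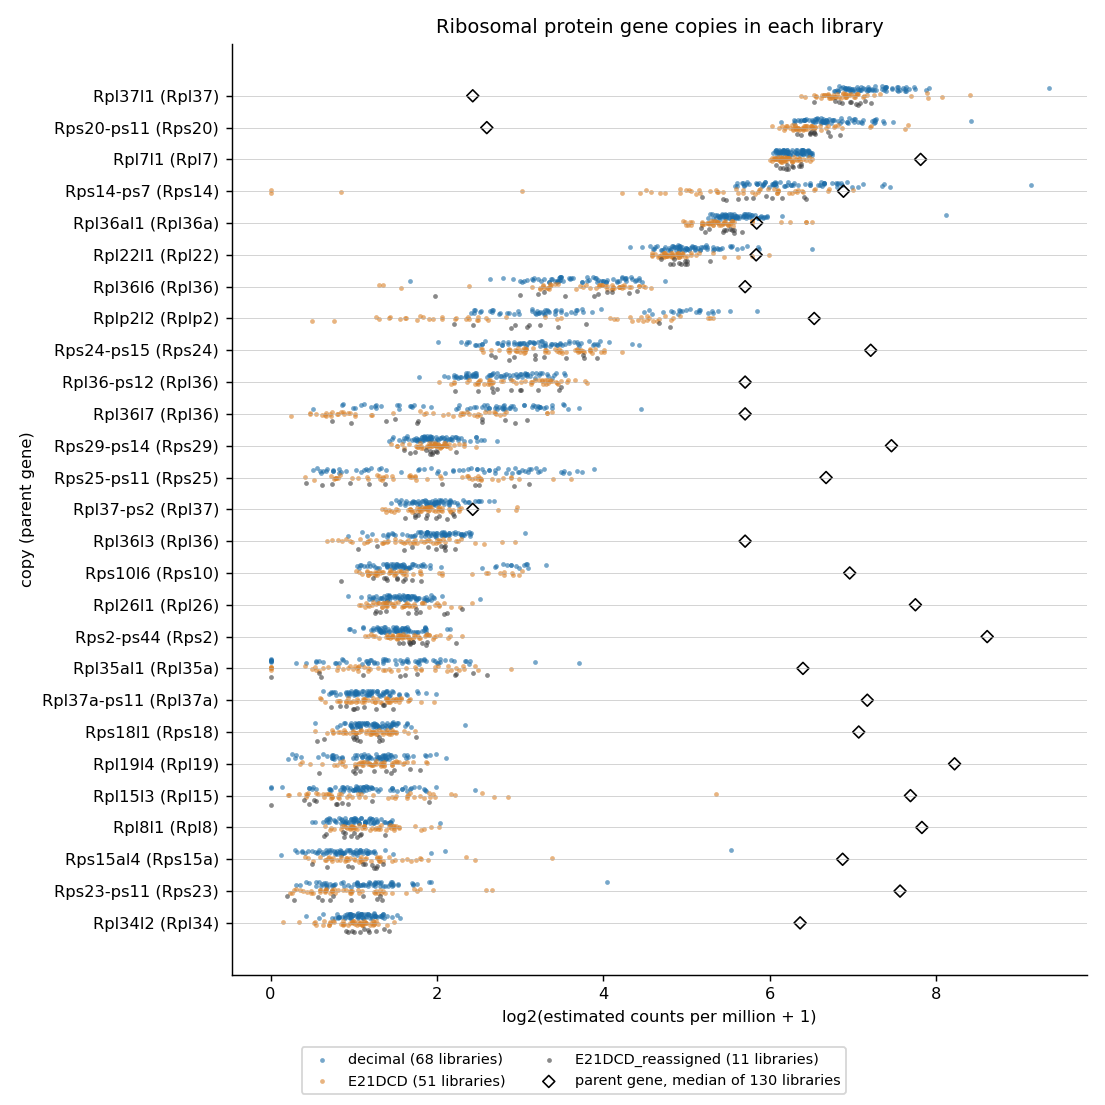
Level of each copy, log2(CPM + 1), 1 point per library in the 68 decimal, 51 E21DCD and 11 reassigned libraries, with the median of the parent gene as an open diamond. Rpl37l1 and Rps20-ps11 lie above the median of their parents, and Rps10l6 shows 2 groups of points with a gap between 2.06 and 2.43.

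Some copies varied more than genes of like level. Each gene's SD was set against the trend of the SD over the mean among autosomal genes, and a ratio of at least 2 was reached by 7 of 27 copies over 130 libraries, against 7.59% of all genes. Without the 11 libraries 9 copies reached it, against 4.59%, and without the 18, an alternative chosen after the data were seen, also 9, against 5.01%. The 9 are not the same copies: Rpl15l3 had a ratio of 2.43 without the 11 and 1.96 without the 18, and Rps15al4 2.18 and 1.43. Their highest values, 5.36 in E21DCD replicate 49 and 5.53 in decimal replicate 15, lie in libraries at the end of the first component, with 2.86 and 3.38 next. Over the 130 libraries Rps14-ps7 had the highest ratio, 4.74 (5.30 without the 11 libraries, place 14 of 14632), and Rplp2l2 the next, 4.31 (4.89, place 17). Without the 18 the order turned, with 4.83 for Rps14-ps7 and 5.94 for Rplp2l2. Rpl7l1 was at the other end over the 130 libraries, with a ratio of 0.56. Without the 18 it was at 0.86, above Rpl34l2 at 0.80 and Rps29-ps14 at 0.82. Without the 11 libraries the SD of Rps14-ps7 was 1.17 (0.70 without the 18), that of Rps14 was 0.42, and that of the level of their summed count was 0.37. For Rplp2l2 the SDs were 1.23 for the copy, 0.42 for Rplp2 and 0.43 for the sum. Rplp2l2 held a median of 8.81% of its pair's count in these libraries, so the SD of that sum mostly reflects Rplp2.

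Of the 27 copies only Rps10l6 had separated levels. A gene was counted as such where 2 normal distributions had a BIC at least 10 below that of 1, their means were apart by no less than 4 SDs of a component and by 1 on the log2 scale, and the smaller held at least 5% of libraries. It is a protein-coding copy of the small-subunit gene Rps10, annotated over chr15:20788028-21277092. In 54 decimal, 41 E21DCD and 11 reassigned libraries it lay between 0.85 and 2.06 (median 1.49), and in 24 libraries between 2.43 and 3.31 (median 2.89). The high level was found in 14 of 68 decimal, 10 of 51 E21DCD and 0 of 11 reassigned libraries, so it was in both large series. It was found in 1 of the 11 striatal libraries and in none of the 7. Separated levels were found in 11.1% of all 14632 genes over 130 libraries, in 4.86% without the 11 and in 0.772% without the 18, and Rps10l6 passed in all 3. With means 3 SDs apart Rpl36l7 and Rps25-ps11 also passed, which makes 3 of 27 copies against 13.4% of genes, and with a pseudocount of 0.1 Rpl35al1 did, against 12.2%.

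Rpl35al1 (chr12:11108520-11109054), a protein-coding copy of the large-subunit gene Rpl35a, was the only member at the floor, an estimated count under 3 in at least 5% of libraries. It was listed at 0 in 12 libraries, and its level reached 3.71 in the highest, with a median of 1.36. At the floor were 0.396% of all genes. With a limit of 10 counts, 5 copies were at the floor, against 2.17% of genes: Rpl35al1, Rps15al4, Rpl19l4, Rps23-ps11 and Rpl15l3. Counts of 0 were also found for Rpl15l3 in 3 libraries and for Rps14-ps7 in 2, E21DCD replicates 19 and 30. Rps14-ps7 was at 0.85 in E21DCD replicate 8 and at 3.02 or more in every other library. These 3 are among the 7 libraries at the end of the first component, so the low end of Rps14-ps7 rests on libraries that stand apart.

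The relation of each copy to its parent was measured over the 57 decimal and 62 E21DCD or reassigned libraries that remain without the 11, which are the libraries of every r below unless another n is given. P-values are two-sided, from 100000 permutations, and adjusted by Benjamini-Hochberg over 318 pairs of an autosomal gene with an l or -ps suffix and its tested parent. Of the 27 copies 14 were positively related to the parent and 7 negatively, against 55% and 17.3% of all pairs, so the positive share is near the background. The median r was 0.21 for the copies and 0.24 for all pairs. Without the 18 libraries 7 copies were positively and 5 negatively related, against 37.1% and 17.6%. The counts were 17 and 4 under median-of-ratios scaling, against 48.7% and 20.8%, and 13 and 4 in the E21DCD and reassigned libraries alone, against 48.1% and 16% of pairs.

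The highest relations were found in the Rpl36a, Rpl36 and Rpl22 families. Rpl36al1 and Rpl36a had r = 0.86 and rho = 0.78 (permutation adjusted p = 2.92e-05), r = 0.76 without the 2 libraries farthest from the median of the parent, and 0.94 in the decimal and 0.80 in the other libraries. Rpl36l3 and Rpl36 had r = 0.84 and rho = 0.87, Rpl36l7 and Rpl36 r = 0.78 and rho = 0.84, and Rpl22l1 and Rpl22 r = 0.74 and rho = 0.61 (adjusted p = 2.92e-05 in each by permutation). The raw p in these is 1e-05, the smallest that the permutations can give. Without the 2 farthest libraries r was 0.85, 0.79 and 0.67. Rps23-ps11 followed with r = 0.73 and rho = 0.47 to Rps23, and r = 0.59 without the 2 farthest libraries. Without the 18 libraries these 5 kept a positive r, from 0.41 for Rps23-ps11 to 0.87 for Rpl36l7.

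Members of the Rpl36 family were related to the parent in different ways. Rpl36l3 on chromosome 1 and Rpl36l7 on chromosome 2 had r = 0.83 with each other, beside 0.84 and 0.78 with Rpl36. Rpl36l6 on chromosome 6 had r = 0.08 with Rpl36 (rho = 0.06, adjusted p = 0.456 by permutation), and r = 0.02 and 0.08 with Rpl36l3 and Rpl36l7. Rpl36-ps12, listed by RefSeq as a lncRNA, had r = -0.29 with Rpl36 (rho = -0.16, adjusted p = 0.00205), which became -0.21 without the 2 farthest libraries. The 2 copies of Rpl37, Rpl37l1 and Rpl37-ps2, had r = 0.49 with each other and 0.27 and 0.41 with Rpl37.

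The lowest relations were those of Rps20-ps11 (r = -0.46, rho = -0.38), Rpl34l2 (r = -0.37, rho = -0.26), Rps29-ps14 (r = -0.37, rho = -0.36), Rps25-ps11 (r = -0.34, rho = -0.41) and Rpl36-ps12. Their adjusted p by permutation ran from 5.48e-05 to 0.00205. Without the 2 farthest libraries r was -0.29 for Rps20-ps11, -0.27 for Rpl34l2, -0.37 for Rps29-ps14 and -0.37 for Rps25-ps11. The relations of Rpl34l2 (r = -0.09) and Rpl36-ps12 (-0.13) did not pass without the 18 libraries. Rps20-ps11, whose count exceeded that of Rps20 in every library, had the most negative r of the 27, -0.56 in the decimal and -0.45 in the other libraries. With the first 10 components regressed out its r was 0.07 and did not pass (adjusted p = 0.652 by permutation). For Rps25-ps11 r was -0.54 in the decimal libraries and -0.13 in the other libraries, where it did not pass (adjusted p = 0.386 by permutation). Rps14-ps7 had r = -0.26 with Rps14 over all of these libraries, -0.62 over the E21DCD and reassigned libraries and 0.11 over the decimal ones, and without the 18 libraries it did not pass (-0.13). Rps15al4 had r = 0.59 with Rps15a but rho = 0.04, with r = 0.23 without the 2 farthest libraries and r = -0.04 without the 18, so its r rests on few libraries. No pooled test is read for Rps10l6, whose libraries fall into 2 levels. Within the low level it had r = 0.35 with Rps10 (n = 96, rho = 0.31, permutation p = 0.00038), and within the high level r = 0.47 (n = 23, rho = 0.56, permutation p = 0.0236). These p-values are not adjusted, and the levels were cut on the copy's own values. The low level holds the 7 libraries at the end of the first component, and Rps10 reached 9.13 in this level (median 6.96). The r within a level was not measured without those 7.

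**Figure D2:**
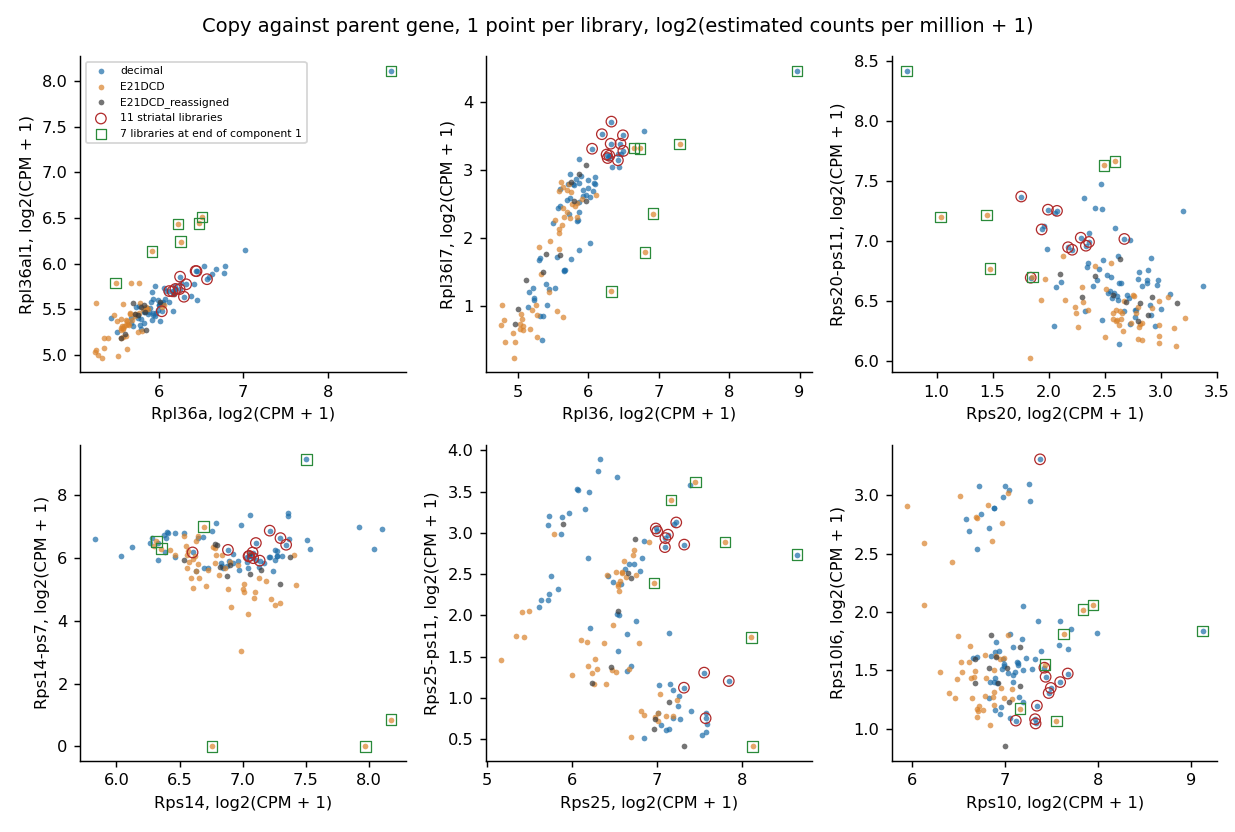
Level of 6 copies (vertical axis) against the parent gene (horizontal axis), log2(CPM + 1), 1 point per library, with the 11 striatal libraries as red circles and the 7 at the end of the first component as green squares. The points of Rpl36al1 (r = 0.86) and Rpl36l7 (0.78) go up with the parent, those of Rps20-ps11 (-0.46) go down, those of Rps10l6 lie in 2 bands, and the 3 lowest points of Rps14-ps7 are green squares.

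Much of the variation is shared by most genes, so the relation was also measured after the first 10 principal components of the tested genes were regressed out of every gene, a step chosen after the data were seen. Then 4 copies were positively and 6 negatively related to the parent, against 12.9% and 10.7% of 318 pairs. The 4 were Rpl36l3 (r = 0.50), Rpl36l7 (0.43), Rpl36al1 (0.39) and Rpl22l1 (0.25). The 6 were Rps25-ps11 (r = -0.80), Rps10l6 (-0.69), Rplp2l2 (-0.49), Rpl37l1 (-0.45), Rpl35al1 (-0.37) and Rps15al4 (-0.32), with permutation adjusted p from 9.64e-05 to 0.00191. Rps10l6 is counted among the 6 by its pooled test. Its pooled r again spans its 2 levels and is not read as a relation here. Within them r was -0.23 and -0.22, as given below, and both had been positive before the step. Before the step Rpl37l1, Rpl35al1 and Rps15al4 had passed with a positive r, and Rplp2l2 had r = 0.15 and did not pass (adjusted p = 0.141 by permutation). With 5 components out the r of Rplp2l2 was -0.07, that of Rpl35al1 -0.03 and that of Rpl37l1 -0.11. With 20 out they were -0.66, -0.39 and -0.56. The 4 positive r went the other way, and with 5 out were 0.77 (Rpl36l3), 0.87 (Rpl36l7), 0.74 (Rpl36al1) and 0.46 (Rpl22l1). With 20 out these were 0.30, 0.23, 0.34 and 0.12. Without the 18 libraries and with 10 out they were 0.27, 0.25, 0.44 and 0.21. With the 10 taken out in each series apart, Rpl22l1 had r = 0.14 in the decimal and -0.08 in the other libraries, and Rps15al4 -0.17 and -0.07, all nearer 0 than over both series. Rps14-ps7 had -0.38 and -0.37 in this way, against -0.13 over both series, where it did not pass. Over both series it had -0.38 with 5 components out and -0.09 with 20. Of the 3 pairs whose shared run is printed above, Rpl36l3 had a positive and Rpl35al1 and Rplp2l2 a negative r in this step.

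Rps25-ps11 (chr3:127733000-127736285, protein coding) is a copy of the small-subunit gene Rps25 on chromosome 8, and its values ran from 0.41 to 3.89 with a median of 2.01. Its r of -0.80 with Rps25 (rho = -0.85) was -0.88 in the decimal and -0.72 in the other libraries, -0.81 without the 18 libraries, and -0.65 and -0.81 with 5 and 20 components out. The 10 tested genes most like it, Rps25 aside, all lie within 5 Mb of Rps25, on another chromosome than the copy. Atp5mg, a subunit of the mitochondrial ATP synthase, had r = 0.83 with the copy and -0.83 with Rps25. Scn2b, a beta subunit of voltage-gated sodium channels, had r = 0.78 and -0.82. Hyou1, a chaperone of the endoplasmic reticulum whose start lies 27.5 kb from that of Rps25, had r = -0.53 with the copy and 0.54 with Rps25. Before the components were taken out, the r with the copy was 0.61 for Atp5mg, 0.21 for Scn2b and -0.41 for Hyou1, so the signs were the same. Of 83 genes within 5 Mb of Rps25, 14 had an absolute r of at least 0.3 with the copy, against 0 of 90 within 5 Mb of the copy itself and 28 of 15149 genes in all.

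Rps10l6 on chromosome 15 showed a like pattern around Rps10 on chromosome 20. Rps10 was the gene most like it of 15149, with r = -0.69 as the measure of likeness (rho = -0.54), -0.70 in the decimal and -0.73 in the other libraries. With 5 components out it was -0.30. Within the low level of the copy r was -0.23 (n = 96, rho = -0.19, permutation p = 0.0268) and within the high level -0.22 (n = 23, rho = -0.05, permutation p = 0.328). Both are smaller in size than over all libraries. The levels were cut on the copy's own values, which narrows its range, so nothing is drawn from this. Of the next 10 genes, 6 lie within 5 Mb of Rps10 and none near the copy. They include Ilrun (r = -0.49, rho = -0.26) and Pacsin1 (r = -0.45, rho = -0.37), an adaptor of endocytosis in neurons 19.1 kb from Rps10. Among them are also the class I histocompatibility genes RT1-N3 (r = 0.43, rho = 0.36) and RT1-M3-1 (r = -0.43, rho = -0.33). Before the components were taken out, the 3 autosomal genes most like Rps10l6 were RT1-N3 (r = 0.45), Ilrun (-0.38) and LOC134483846 (0.36), all on chromosome 20. Of 208 genes within 5 Mb of Rps10, 8 had an absolute r of at least 0.3, against 0 of 48 around the copy and 46 of 15149 in all.

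**Figure D3:**
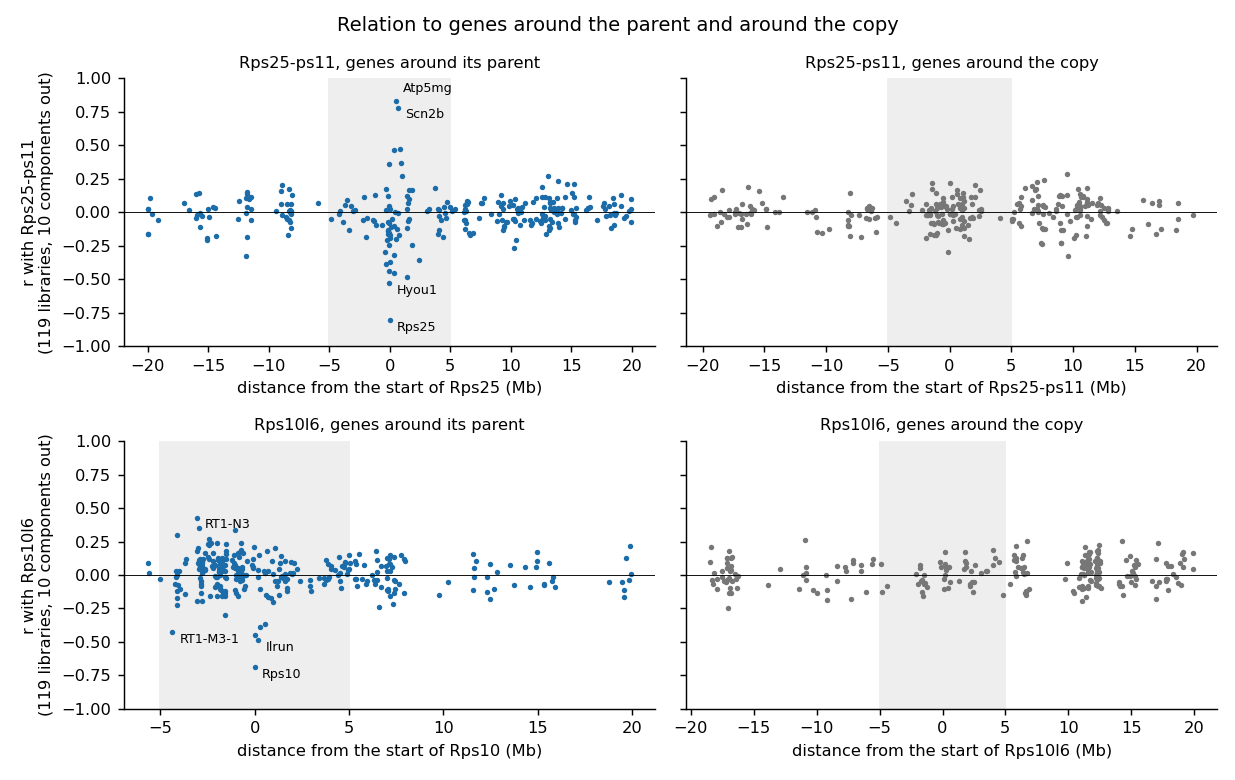
Pearson r of Rps25-ps11 (top) and Rps10l6 (bottom) with each tested gene by distance in Mb from the start of the parent gene (left) and of the copy (right), after 10 components were regressed out, with 5 Mb either side shaded. High absolute r is seen near the parents, where 14 and 8 genes reach 0.3, and near neither copy.

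These were the 2 of 27 copies with at least 3 of their 10 most like genes within 5 Mb of the parent, against 2.23% of 269 genes with an l or -ps suffix and a tested parent elsewhere. No copy had 3 such genes around itself, against 5.58%, and 3 had 2 (Rpl36-ps12, Rpl36l6 and Rpl26l1), against 9.29%. Rpl36-ps12 (chr1:184555107-184598962) had r = -0.46 with Uqcrc2, a subunit of respiratory complex III whose start is 0.278 kb from its own; before the components were taken out this r was -0.05. Rpl36l6 had r = 0.39 with Plekhd1 and 0.38 with Smoc1, both within 5 Mb of it.

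The copies were then set against the mean of the 81 tested genes of the ribosomal protein list, a relation added after the data were seen. For each copy its parent was left out of the mean, and each gene of the list was left out of its own mean. The genes of the list follow one another closely (median r with the mean 0.93). The mean of all 81 had r = 0.89 with the first principal component (rho = 0.91, permutation adjusted p = 1.5e-05, r = 0.86 without the 2 farthest libraries). It also had r = 0.45 with the mean of the oligodendrocyte genes (rho = 0.55, adjusted p = 1.5e-05 by permutation, r = 0.45 without the 2 farthest) and -0.01 with log2 of the summed counts (rho = -0.02, adjusted p = 0.937 by permutation, 0.01 without the 2 farthest). Of the 27 copies 17 were positively and 3 negatively related to the mean, against 27.2% and 49.8% of 14632 genes. Without the 18 libraries these were 14 and 3 copies, against 35.4% and 30.3%.

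Copies with r over 0.9 were Rps20-ps11, Rpl37l1 and Rpl36al1. Rps20-ps11 had r = 0.97 with the mean (rho = 0.94, permutation adjusted p = 2.21e-05) and place 9 of 14632 genes; RefSeq lists it as a transcribed pseudogene. Rpl37l1 had r = 0.96 (rho = 0.93, place 11) and Rpl36al1 0.94 (rho = 0.90, place 41). Without the 2 farthest libraries r was 0.96, 0.95 and 0.93, and without the 18 libraries 0.96, 0.95 and 0.90. In the decimal libraries r was 0.98, 0.97 and 0.93, and in the others 0.96, 0.95 and 0.96. The parents of the first 2, both genes of the list, were far lower in this order. Rps20 had r = -0.52 (rho = -0.39, place 10615) and Rpl37 0.40 (rho = 0.28, place 2504), each with itself left out of the mean. Rpl22l1 was next with 0.82, while Rpl7l1, with a mean level of 6.25, had 0.24. Without the 2 farthest libraries Rpl7l1 had 0.43, and in the decimal libraries 0.09, where it did not pass. The 3 negative members were Rpl34l2 (-0.39), Rps29-ps14 (-0.38) and Rpl36-ps12 (-0.34), whose parents had 0.95, 0.93 and 0.86. Rpl36-ps12 had -0.22 without the 2 farthest libraries, and -0.20 without the 18, where it did not pass. Rps14-ps7 had r = 0.11 and rho = 0.56, and its 3 lowest values lie in libraries at the end of the first component.

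**Figure D4:**
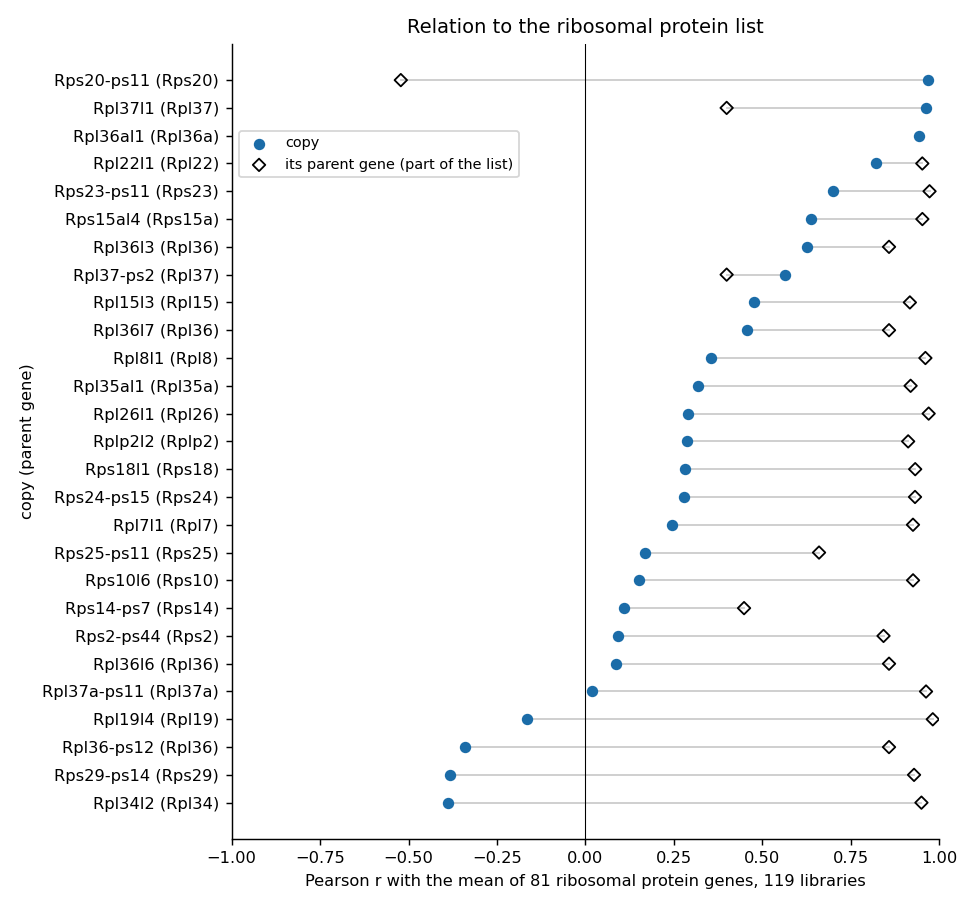
Pearson r of each copy (filled) and of its autosomal parent gene (open diamond) with the mean level of the ribosomal protein list, without the 11 striatal libraries. For both the parent gene was left out of the mean. The points of Rps20-ps11 (0.97) and Rpl37l1 (0.96) lie right of those of their parents Rps20 (-0.52) and Rpl37 (0.40), and apart from Rpl37-ps2 every other copy with a diamond lies left of it; Rpl36a is X-linked and has none.

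Between the 68 decimal and the 51 E21DCD libraries, limma (Benjamini-Hochberg over 15150 genes, adjusted p under 0.05) called 9 of 27 copies higher in the decimal libraries, against 15.1% of all genes, and 3 lower, against 12.6%. The median difference was 0.08 for the copies and 0.01 for all genes. Without the 11 libraries 5 copies were higher, against 5.29%, and 1 lower, against 3.48%, and with median-of-ratios scaling as well 4 were higher, against 5.71%, and 1 lower, against 5.17%. Without the 18 there were 9 and 3, against 19.2% and 15% of genes. With a mean of at least 2 only 11 of the copies were tested, of which 8 were higher and 1 lower, against 15.2% and 13.3%; Rpl8l1 and Rps2-ps44 were not among them. The 27 were all tested with no filter on low values, with 8 higher and 1 lower, against 6.78% and 4.7%. Of the 81 tested genes of the ribosomal protein list 54 were higher and 1 lower, and 34 and 0 without the 11. The summed level of the oligodendrocyte genes moved with the series as well (median 12.4 in the decimal and 11.6 in the E21DCD libraries). The decimal median includes the 11 striatal libraries, where this level was 13.67 to 14.63. With the mean level of these genes and log2 of the summed counts as covariates 1 copy was higher, against 1.06% of genes, and 1 lower, against 2.07%. The 11 were kept in this model. The kind of identifier is the only label behind this split, and what else differs between the series cannot be told apart from it.

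Rps14-ps7 ran from 5.58 to 9.15 in the decimal libraries (median 6.20) and from 0.00 to 7.00 in the E21DCD libraries (median 5.68), so the series overlap. It was higher by 1.03 ± 0.19 (SE, limma adjusted p = 5.08e-05), by 1.04 ± 0.21 without the 11 libraries and by 0.75 ± 0.12 without the 18, and with the covariates by 1.04 ± 0.22 (limma adjusted p = 0.00202). Its parent Rps14 differed by 0.09 ± 0.08 (adjusted p = 0.381). Rpl36l7 ran from 0.51 to 4.46 against 0.24 to 3.38 (medians 2.66 and 1.87), again with overlap, and was higher by 0.71 ± 0.16 (limma adjusted p = 0.000575), and by 0.54 without the 11. Rplp2l2 ran from 2.40 to 5.85 against 0.50 to 5.32 (medians 3.43 and 2.62), also overlapping, and was higher by 0.64 ± 0.21 (limma adjusted p = 0.0176), and by 0.70 without the 11. With the covariates neither passed (limma adjusted p = 0.178 and 0.254). Their parents Rpl36 and Rplp2 were higher by 0.34 ± 0.10 and 0.30 ± 0.08 (limma adjusted p = 0.00864 and 0.00522).

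The 6 other copies called higher differed less. Rpl37l1 was higher by 0.29, Rps20-ps11 by 0.28, Rpl36l3 by 0.27, Rpl36al1 by 0.19, Rpl22l1 by 0.17 and Rpl7l1 by 0.08, with SEs from 0.03 to 0.08. Of these Rpl37l1 and Rps20-ps11 kept an adjusted p under 0.05 without the 11 libraries, and Rpl37l1 lost it when these were left out under median-of-ratios scaling (0.0619). Of their parents, Rpl37 had a difference of -0.35 ± 0.14 and Rps20 of -0.01 ± 0.08 (limma adjusted p = 0.0424 and 0.92). The copies called lower had differences of -0.21 ± 0.08 (Rpl36-ps12), -0.16 ± 0.05 (Rpl8l1) and -0.13 ± 0.05 (Rps2-ps44), with limma adjusted p from 0.0211 to 0.0349. Of these Rpl8l1 was also called without the 11 libraries (-0.20 ± 0.06, limma adjusted p = 0.0142) and with the covariates, but not with the reassigned libraries added to the E21DCD libraries (0.0788). Its parent Rpl8 was higher by 0.16 ± 0.05. Between the 11 reassigned and the 51 E21DCD libraries limma called 0 of 15150 genes (0%) higher or lower, with 634 at an unadjusted p under 0.05. For the copies these differences ran from -0.51 (Rpl15l3) to 0.54 (Rps14-ps7). Without the 6 E21DCD libraries at the end of the first component they were -0.31 and 0.29 for these copies, and the highest was 0.39 (Rpl36l7).

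**Figure D5:**
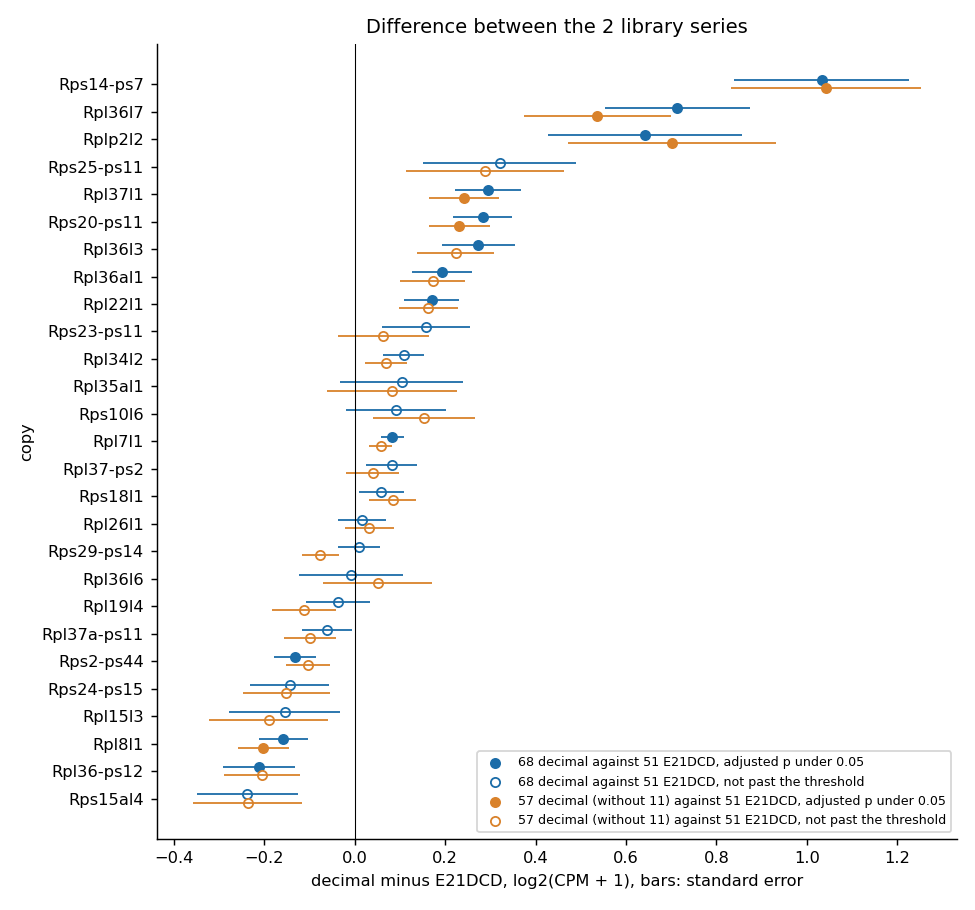
Difference of each copy between the decimal and the E21DCD libraries in log2(CPM + 1), with the standard error as bar, over 68 against 51 libraries and without the 11 striatal libraries. Filled points have a limma adjusted p under 0.05 and include Rps14-ps7 at 1.03 and 1.04.

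Another tested gene surrounds 5 copies: Rpl37l1 in Vps53, Rps25-ps11 in Vps39, Rps14-ps7 in Oscp1, Rpl37a-ps11 in Myo1e and Rpl34l2 in LOC102548047. None was positively related to that gene and 2 were negatively related, against 41.5% and 16.6% of 566 pairs of a tested gene and one around it. Under median-of-ratios scaling Rps14-ps7 had a positive relation to Oscp1 and 2 were negative, against 33.9% and 19.6% of pairs. In the E21DCD and reassigned libraries 2 were positive (Rps14-ps7 and Rpl37a-ps11), against 27.4%, and 2 negative, against 17%. Without the 18 libraries 0 were positive, against 30.6%, and 3 negative, against 9.36%. Rpl37l1 had r = -0.73 with Vps53, part of a complex that tethers vesicles to the Golgi (rho = -0.53, permutation adjusted p = 4.68e-05), -0.59 without the 2 farthest libraries and -0.41 under median-of-ratios scaling. Rps25-ps11 had r = -0.27 with Vps39, part of a tether of late endosomes and lysosomes (rho = -0.28, adjusted p = 0.00451 by permutation), and -0.32 without the 2 farthest. After 10 components were regressed out these were -0.18 and -0.02, and 0 of 5 copies passed in either direction, against 12.5% positive and 5.48% negative of all pairs. The share of a copy's counts that comes from reads of the gene around it was not tested.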

How the data were processed

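The kind of animal identifier in the labels gave the groups. Reads were quantified with kallisto 0.48, per the submitters' processing notes, and the deposited values are log2 of the estimated count per gene plus 1, as read from the values, with no scaling for library size. Here they were put on a linear scale, divided by the library's sum, multiplied by 1000000, and log2 was taken with a pseudocount of 1. Count models were not used, since the deposited log2 values are not whole counts. Of 164 samples 34 have no column and are not analysed here.

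Tests took the genes with a mean level of 1 or more, 15150 in all and 14632 on the 20 autosomes. Series were compared with limma 3.58.1 (R 4.3.3), with Benjamini-Hochberg adjustment over all tested genes, and correlations with 100000 permutations (Python 3.11.15). The genome build is not given in the sources used here. The positions of 38278 genes found in the RefSeq table of GRCr8 all matched a gene end there, and sequences and gene types are from that assembly. The methods were tested on simulated data.

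Members, lists and limits were chosen with earlier results of these data known, among them the series differences of Rps14-ps7 and Rplp2l2. The genes named are the copies with separated levels or at the floor, the 8 highest by mean, up to 10 with the largest series differences past the threshold, the 5 highest and 5 lowest by r to the parent, those nearest the limit, their parents and surrounding genes, and the 3 genes most like a separated copy. Other genes, such as those around Rps25, were named after their values were seen. The 82 symbols of ribosomal protein genes without a suffix form the list of parents. Alternatives covered scaling, pseudocount, filter, limits, libraries left out and covariates.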

Additional observations from a re-analysis of the deposited data

How the results depend on the processing

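The number of copies called higher in the decimal libraries was 9, and 5 without 11 libraries, 4 without these under median-of-ratios scaling and 1 with covariates. The number called lower was 3, and 1 in each of these, with no filter on low values, and with a mean of at least 2, where 11 copies were tested. The number with separated levels was 1, with 3 at 3 component SDs and 2 at a pseudocount of 0.1, and the number at the floor was 1, with 5 under 10 counts. Copies positively related to the parent were 14, with 7 without 18 libraries and 4 after 10 components were regressed out. Those negatively related were 7, with 4 under median-of-ratios scaling and in the E21DCD and reassigned libraries. For the surrounding gene the positive number was 0, with 1 under median-of-ratios scaling and 2 in the E21DCD and reassigned libraries. The negative number was 2, with 3 without 18 libraries and 0 after 10 components. Of relations to the parent that had passed, the direction turned for 5 after 10 components (Rpl37l1 -0.45, Rps20-ps11 0.074, Rps29-ps14 0.060, Rpl35al1 -0.37, Rps15al4 -0.32). The same was found for 4 that had not passed (Rplp2l2, Rpl36l6, Rps24-ps15 and Rps18l1). Within the low and high levels of Rps10l6 r went from positive to -0.23 and -0.22 (rho = -0.19 and -0.05), and nothing is drawn from this. With no component out, the direction also turned for Rps14-ps7 in the decimal libraries (0.11) and for Rps15al4 without 18 libraries (-0.039). So did that of Rpl8l1 to the list mean without 18 libraries (-0.085). The cause of these changes was not tested.

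Against the sum scaling, median-of-ratios scaling shifted a library's median gene by between -0.09 and 0.85. Alternatives with components, the list mean, and both scaling and libraries were chosen after the data were seen. No paired analysis was possible because each identifier names 1 library and no label links libraries to each other. The replicate numbers used here only name libraries. Counts under 3 in a library set the limit for low copies, and how reads were split between a copy and its parent was not tested.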
